A study of Mus musculus with 2 samples.

Results

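The transcripts of 10 chemokines that attract or hold monocytes and neutrophils (Ccl2, Ccl7, Ccl8, Ccl3, Ccl4, Ccl6, Ccl9, Cxcl1, Cxcl2 and Cxcl12) were followed through single cells of the mouse molar, by cell class and after clodronate liposomes given to deplete macrophages. The genes were chosen by symbol, and each matched 1 of the 34285 genes listed. Cells came from mandibular first molars with their surrounding tissues, dissociated with enzymes at PN15.5 (PN, postnatal day). The C57BL/6J mice of the Lipo-Clo library had been injected intraperitoneally with liposomes carrying clodronate, which kills phagocytes, at 40 μg/g from PN3.5 to PN12.5, every 3 days. The mice of the Lipo-PBS library had received vehicle liposomes on the same days. Each condition was 1 library, and how many mice went into it is not stated, so no difference below has a replicate check and none was tested. Intervals are at the 95% level and cover counting error alone.

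Chemokines are small secreted proteins that guide leukocytes along gradients through receptors on the leukocyte surface. Ccl2 and Ccl7 act through Ccr2, which brings monocytes out of bone marrow and into tissue, while Cxcl1 and Cxcl2 act through Cxcr2 on neutrophils. Cxcl12 acts through Cxcr4 and keeps neutrophils and their precursors in the marrow. Macrophages are a well known source of many of these proteins, and NF-κB is the transcription factor most often tied to their induction.

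Of the 10 genes, 7 lie on chromosome 11, 2 on chromosome 5 and 1 on chromosome 6. Among protein-coding genes Ccl2 and Ccl7 are direct neighbours, as are Ccl9 and Ccl6, Ccl3 and Ccl4, and Cxcl1 and Cxcl2. RefSeq gave the stretch before the annotated start for 7 of them, and no entry for Ccl2, Ccl7 or Ccl4. The last 120 bases before the start are shown for the neighbours Cxcl1 and Cxcl2, since these 2 genes share a receptor. Over both libraries the largest share of counts lay in dental mesenchyme for Cxcl1 and in macrophages for Cxcl2, and each class held both genes. Capitals mark the longest run of letters that both windows share, which holds a site of the kind NF-κB is known to bind. On GRCm38.p6 the windows are chr5:90891125-90891244 for Cxcl1 and chr5:90903779-90903898 for Cxcl2, both on the plus strand, whereas the submitters' notes name GRCm39 for the counts.
Cxcl1: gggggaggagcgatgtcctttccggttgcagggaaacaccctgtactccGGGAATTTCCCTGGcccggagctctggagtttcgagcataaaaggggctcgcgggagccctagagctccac
Cxcl2: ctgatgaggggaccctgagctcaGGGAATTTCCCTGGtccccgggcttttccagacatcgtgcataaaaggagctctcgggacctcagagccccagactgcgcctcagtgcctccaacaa

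The shared run of 14 bases begins 71 bases before the start of Cxcl1 and 97 bases before that of Cxcl2. On either strand it stood in 2 of 32851 RefSeq windows of this length (0.00609%), which are those of this pair, from which it was taken. None of the other 5 members with a window held it. The windows of Cxcl1 and Cxcl2 were 61.7% and 59.2% G or C, that of Cxcl12 71.7% and that of Ccl9 40.8%.

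After filters on genes, mitochondrial share and doublets, 8254 Lipo-Clo and 8261 Lipo-PBS cells were used, with 26852423 and 25831678 UMIs (unique molecular identifiers, which count captured transcripts). Mitochondrial genes held 0.37% of these UMIs in Lipo-Clo and 1.73% in Lipo-PBS, and the part of this difference in the values below was not tested. Classes came from clusters made without any chemokine or chemokine receptor gene. Macrophages, with C1qa, C1qb, C1qc and Mrc1 among their leading genes or markers, were 121 cells or 1.47% (1.22% to 1.75%) in Lipo-Clo and 175 cells or 2.12% (1.82% to 2.45%) in Lipo-PBS. Neutrophils were 516 and 193 cells. A cluster named monocyte-like by its markers held 387 and 174 cells, and also held dendritic, osteoclast and granulocyte precursor cells. A cluster led by Acta2, Tagln and Mgp carried markers of 4 other lineages (mesenchyme, endothelium, epithelium and neutrophils) and was nearly all from Lipo-PBS (756 cells against 47), so whole-library values are given with and without it. The libraries shared 30 barcodes. Erythroid cells, which should make none of these chemokines, give the level of free RNA: there Ccl8 had 0 UMIs in both libraries, and Ccl2 had 2 UMIs in 352 Lipo-Clo cells and 32 UMIs in 177 Lipo-PBS cells, 22 of them in 1 cell.

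The plot of levels by class shows how unevenly the 10 genes were spread. Of 11 named classes, macrophages had the highest level, in UMIs per 1000000 UMIs of the class (CPM), for Ccl2, Ccl7, Ccl8, Ccl3, Ccl4, Cxcl1 and Cxcl2 in both libraries. Ccl6 was highest in macrophages of Lipo-Clo (60.6 CPM, beside 59.96 in neutrophils) and in the monocyte-like cluster of Lipo-PBS, and Ccl9 the other way round, and Cxcl12 was highest in endothelium in both libraries. The median macrophage held UMIs of 4 of the 10 chemokines in either library, against 2 in the monocyte-like cluster and 1 in neutrophils. All 10 together made up 2.44% of macrophage UMIs in Lipo-Clo and 2.25% in Lipo-PBS, but 0.209% and 0.241% of neutrophil UMIs.

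**Figure D1:**
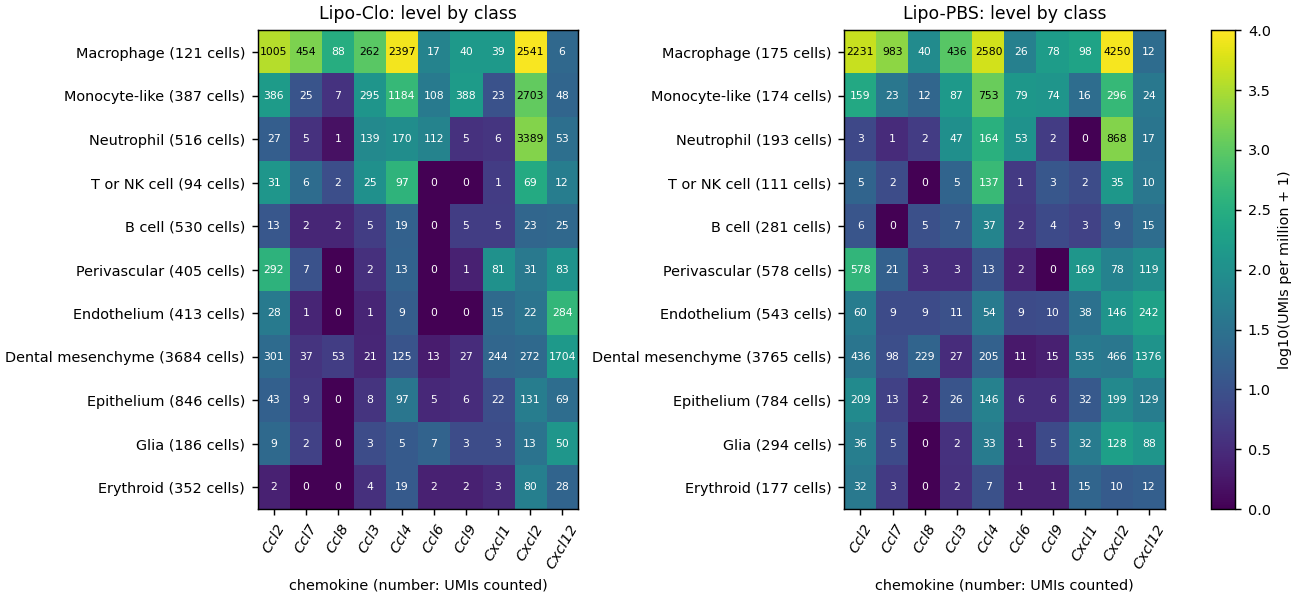
Level of each chemokine in 11 cell classes of Lipo-Clo (left) and Lipo-PBS (right); colour is log10 of CPM plus 1, and the number in each field is the UMI count. The macrophage row is the brightest in both libraries for 7 of the 10 genes, while Cxcl12 stands out in endothelium (284 and 242 UMIs).

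Over whole libraries, Ccl2, Ccl7, Ccl8 and Cxcl1 were at least 2-fold lower in Lipo-Clo. The MIP-1 group (Ccl3, Ccl4, Ccl6 and Ccl9), Cxcl2 and Cxcl12 stayed within 2-fold. Those lower were 4 of 10 members, beside 5.27% of the 17721 genes with at least 20 UMIs. No member was 2-fold higher, beside 2.66% of genes. The median log2 ratio over all those genes was −0.11. The 4 members also passed 2-fold without the mixed-lineage cluster, beside 5.24% of genes, and there Ccl9 passed it upwards at 1.02, beside 2.58%. When each class was given the same weight in either library, the log2 ratio of Ccl2 was −0.58, that of Ccl7 −0.59, that of Ccl8 −0.75 and that of Cxcl1 −0.96, so none of the 4 reached 2-fold. Ccl2 also stayed short of it with TMM factors (−0.95), Ccl8 with cells thinned to 1000 UMIs (−0.37) and Cxcl1 as a mean over equally weighted cells (−0.99).

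**Figure D2:**
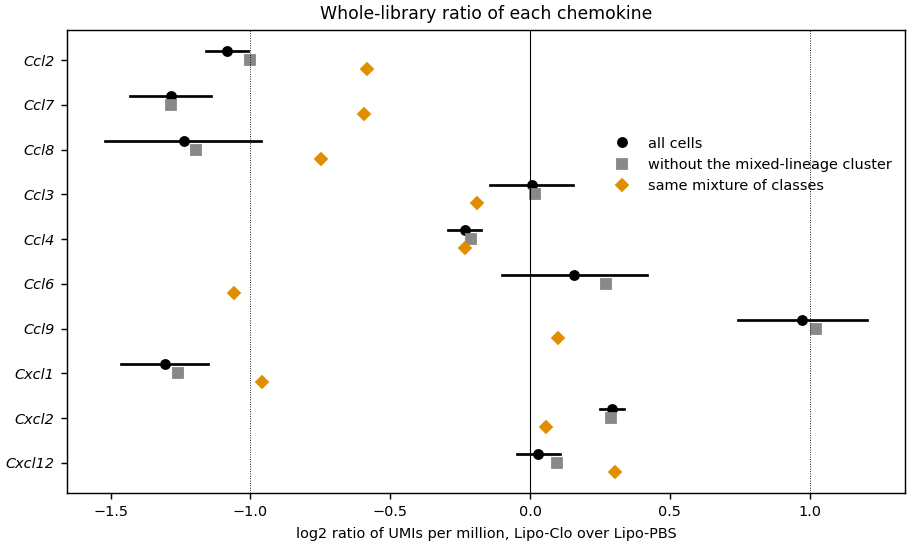
Log2 ratio of whole-library CPM, Lipo-Clo over Lipo-PBS, for each chemokine: circles with 95% counting intervals are all cells, squares leave out the mixed-lineage cluster, and diamonds give each class the same weight in either library. Dotted lines mark 2-fold; Ccl9 moved from 0.97 to 0.10 and Ccl6 from 0.16 to −1.06 when the mixture was made the same.

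Ccl2, the main ligand that draws Ccr2-bearing monocytes, had 2197 UMIs in Lipo-Clo and 4477 in Lipo-PBS, or 81.8 and 173 CPM. The log2 ratio was −1.08 (−1.16 to −1.01). Macrophages held 45.7% of the Ccl2 UMIs in Lipo-Clo and 49.8% in Lipo-PBS, although they held 1.04% and 1.84% of all UMIs. Within macrophages the level was 3582 CPM in Lipo-Clo against 4683 in Lipo-PBS, for a log2 ratio of −0.39 (−0.50 to −0.28). This value depended on which cells were called macrophages. It was −1.75 with every deposited cell kept, −1.83 at a coarser cluster resolution of 0.5 and −2.80 with each library clustered alone, all further from 0 than the whole-library ratio, and −0.078 in cells with at least 3 UMIs of the C1q genes. At the first 2 of these settings, and in Lipo-PBS clustered alone, no monocyte-like cluster formed. Perivascular cells, the pericytes and smooth muscle around vessels, were the next highest named class at 382 and 434 CPM. Their ratio of −0.18 (−0.39 to 0.02) was not clear of 0. Dental mesenchyme was far lower, at 24.3 and 35.5 CPM, with a ratio of −0.55 (−0.76 to −0.33). An unnamed cluster led by Acta2, Itm2a and Col15a1 (33 and 70 cells) had 768 and 44.5 CPM, from 44 and 7 UMIs. Erythroid cells, the guide to free RNA, had 1.30 and 41.1 CPM, in Lipo-PBS mostly from a single cell. The mesenchymal level lay below that erythroid value in Lipo-PBS and above the erythroid one in Lipo-Clo.

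A Ccl2 UMI was seen in 62.0% of Lipo-Clo and 68.0% of Lipo-PBS macrophages, against 0.568% and 2.26% of erythroid cells. The median depth was 1886 and 2352 UMIs in macrophages and 3676.5 and 3563 in erythroid cells. Thinned to 1000 UMIs a cell, with 17 macrophages of each library too shallow to keep, the macrophage shares were 51.9% and 57.0%. In perivascular cells 13.8% and 16.4% had a Ccl2 UMI. Transcripts were bunched in few cells, since the 10 richest cells held 23.7% of Ccl2 in Lipo-Clo and 19.0% in Lipo-PBS.

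Ccl7, a neighbour of Ccl2 that shares its receptor Ccr2, had 553 UMIs in Lipo-Clo against 1297 in Lipo-PBS, for a log2 ratio of −1.29 (−1.43 to −1.14). It was the member most restricted to macrophages, which held 82.1% and 75.8% of its UMIs. Its level there was 1618 CPM in Lipo-Clo and 2063 in Lipo-PBS, or −0.35 (−0.51 to −0.19) on the log2 scale. As for Ccl2, the macrophage ratio passed 2-fold with every deposited cell kept (−2.02), with coarser clusters (−2.12) and with each library clustered alone (−3.16), and it was −0.056 in the cells called by C1q. Of the macrophages with a Ccl7 UMI, 86.7% in Lipo-Clo and 95.5% in Lipo-PBS also had a Ccl2 UMI. Dental mesenchyme had only 37 and 98 UMIs of Ccl7, with a ratio of −1.42 (−2.00 to −0.86).

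Ccl8, which in the mouse is a ligand of Ccr8, had 156 UMIs in Lipo-Clo against 354 in Lipo-PBS, for a log2 ratio of −1.24 (−1.52 to −0.96). Macrophages and mesenchyme went opposite ways for this gene. Dental mesenchyme had 229 UMIs in Lipo-PBS and 53 in Lipo-Clo, a ratio of −2.12 (−2.58 to −1.69), whereas macrophages had 40 UMIs in Lipo-PBS and 88 in Lipo-Clo, a ratio of 1.90 (1.35 to 2.48). The largest share of Ccl8 lay in mesenchyme in Lipo-PBS (64.7%) and in macrophages in Lipo-Clo (56.4%). Over both libraries mesenchyme held 46.8% of all UMIs and macrophages 1.44%. The share of macrophages with a Ccl8 UMI was 21.5% (14.5% to 29.9%) in Lipo-Clo and 10.3% (6.21% to 15.8%) in Lipo-PBS, and 1 Lipo-Clo cell held 22 of the 88 UMIs. The macrophage ratio had the opposite sign where macrophages were clustered more coarsely or apart in each library (−0.55 and −0.84), and with every deposited cell kept (−0.12). No monocyte-like cluster formed in either library with coarser clusters or with every deposited cell kept, nor in Lipo-PBS clustered alone. The cells called macrophages there may be a different set.

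Ccl8 was the only 1 of 9 members with at least 20 UMIs to pass 2-fold upwards in macrophages, beside 3.69% of genes, and 0 of 9 passed downwards, beside 8.83%. Neither count held with every deposited cell kept, with coarser clusters or with each library clustered alone. With every deposited cell kept or with coarser clusters no monocyte-like cluster formed in either library, and with separate clustering none formed in Lipo-PBS. The cells called macrophages there may thus be a different set, which was not tested. Ccl8 lost its call as given above, while Ccl2, Ccl7 and Cxcl1 (−1.84) passed 2-fold downwards with every deposited cell kept, and these and Ccl3 with coarser clusters (Cxcl1 at −2.00). With each library clustered alone Ccl2, Ccl7, Cxcl1 (−2.81), Ccl3, Ccl4 and Cxcl2 did. Macrophages split into 3 subclusters, and their chemokines differed. One led by Mrc1, Stab1 and F13a1 (53 Lipo-Clo and 91 Lipo-PBS cells) held 558 and 1526 Ccl2 UMIs, or 5465 and 7552 CPM. The second, led by Lgals3, Crip1 and S100a6 (51 and 46 cells), had a Ccl2 level of 1427 and 766 CPM, so the log2 ratio was −0.47 (−0.61 to −0.33) in the first and 0.90 (0.53 to 1.27) in the second. Ccl8 was higher in Lipo-Clo in both, at 31 against 23 UMIs in the first and 37 against 6 in the second. The third subcluster (17 and 38 cells) was led by collagen genes of mesenchyme.

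Ccl3 and Ccl4, the classical macrophage inflammatory proteins, are neighbours on the chromosome. Ccl3 had 770 UMIs in Lipo-Clo and 738 in Lipo-PBS, and its log2 ratio of 0.01 (−0.14 to 0.15) was not clear of 0. Ccl4 had 4173 and 4722 UMIs, a ratio of −0.23 (−0.29 to −0.17). The level of Ccl3 in macrophages was 934 and 915 CPM, a ratio of 0.03 (−0.20 to 0.25). That ratio was −0.88 with every deposited cell kept, −1.01 with coarser clusters, −1.85 with each library clustered alone and 0.43 in the cells called by C1q. Ccl4 in macrophages was 8544 CPM in Lipo-Clo against 5415 in Lipo-PBS, for a ratio of 0.66 (0.58 to 0.74). With coarser clusters that ratio was −0.97 and with each library clustered alone −1.71. With every deposited cell kept it was −0.96 and in the cells called by C1q 0.96, and the cause was not tested.

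In the monocyte-like cluster and in neutrophils Ccl4 went the other way. In the monocyte-like cluster it was 479 CPM in Lipo-Clo against 1236 in Lipo-PBS, for a ratio of −1.37 (−1.50 to −1.23). At a finer cluster resolution of 2 this was −0.33, and with TMM factors −0.92. In neutrophils it was 91.0 and 341, a ratio of −1.91 (−2.23 to −1.59), but 61 of the 164 Lipo-PBS UMIs lay in 1 cell and the share of neutrophils with a Ccl4 UMI was 11.0% and 10.9%. Under a stricter cell filter (500 genes or more, mitochondrial UMIs of 10% or less) the neutrophil ratio was 0.55. T or NK cells, which also secrete Ccl4 on activation, had 97 and 137 UMIs. Of the macrophages with a Ccl3 UMI, 86.6% in Lipo-Clo and 83.3% in Lipo-PBS also had a Ccl4 UMI.

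Ccl6 and Ccl9 are rodent chemokines that bind Ccr1. Ccl6 had 268 UMIs in Lipo-Clo against 231 in Lipo-PBS, for a log2 ratio of 0.16 (−0.10 to 0.42). In the 2 classes with most of its UMIs it was lower in Lipo-Clo, at 43.7 against 130 CPM in the monocyte-like cluster, a ratio of −1.57 (−2.00 to −1.13), and at 59.96 against 110 in neutrophils, a ratio of −0.88 (−1.36 to −0.38). With doublets kept the monocyte-like ratio was −0.84, short of 2-fold. In macrophages the ratio was 0.15 (−0.82 to 1.09), from 17 and 26 UMIs, and in dental mesenchyme 0.23 (−1.04 to 1.53), from 13 and 11. Neutrophils made up 6.25% of Lipo-Clo and 2.34% of Lipo-PBS cells, and the monocyte-like cluster 4.69% and 2.11%.

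Ccl9, known as the chief chemokine of osteoclasts, had 477 UMIs in Lipo-Clo against 234 in Lipo-PBS, for a ratio of 0.97 (0.74 to 1.20), just under 2-fold. In Lipo-Clo 81.3% of it lay in the monocyte-like cluster, against 31.6% in Lipo-PBS. Over both libraries the cluster held 65.0% of Ccl9, but 13.1% at the finer resolution of 2, where the ratio within it was −0.40 in place of 0.37. Most of the Lipo-Clo share came from a subcluster led by the osteoclast genes Atp6v0d2, Acp5 and Ctsk, with 253 UMIs in 58 Lipo-Clo cells and 15 UMIs in 23 Lipo-PBS cells. That is 649 (571 to 734) and 159 (88.9 to 262) CPM, from fewer than 50 cells in Lipo-PBS. The 10 cells richest in Ccl9 held 38.8% of its UMIs in Lipo-Clo and 18.8% in Lipo-PBS, and 1 cell of the Lipo-Clo monocyte-like cluster held 58. As a mean over equally weighted cells, the whole-library ratio of Ccl9 was 0.33.

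**Figure D3:**
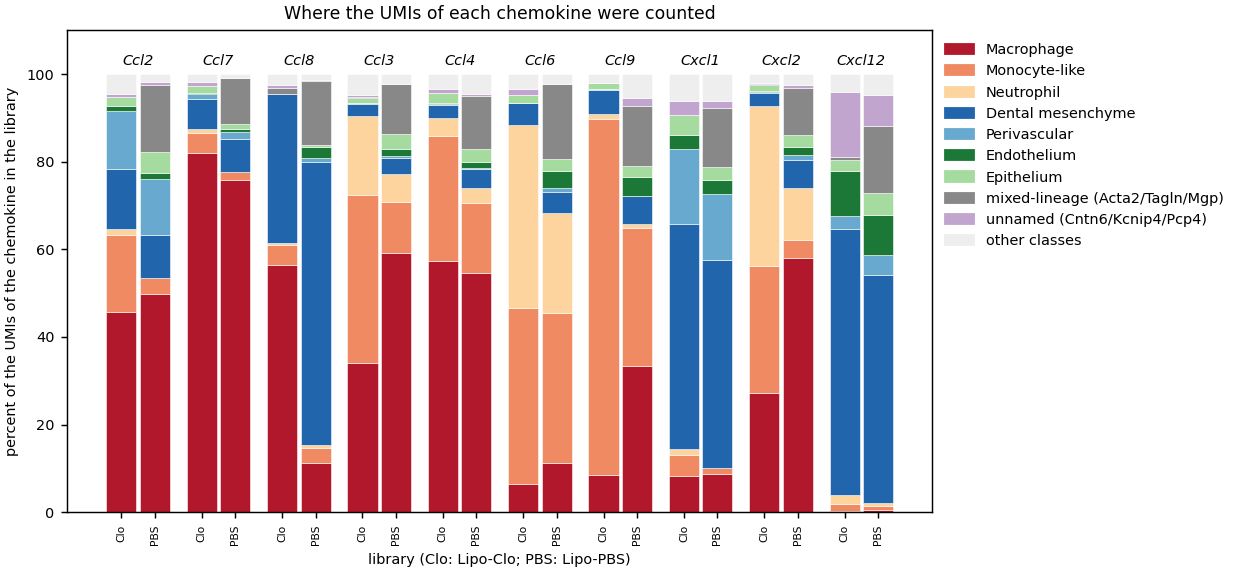
Share of each chemokine's UMIs counted in each cell class, as percent of the library's UMIs of that gene, with Lipo-Clo on the left and Lipo-PBS on the right of each pair of bars. Cxcl2 shifted from 58.1% macrophage in Lipo-PBS to 27.3% in Lipo-Clo, and Ccl9 from 31.6% to 81.3% monocyte-like.

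Cxcl2, a ligand of the neutrophil receptor Cxcr2, differed little in amount between the libraries and much in where it was counted. It had 9317 UMIs in Lipo-Clo and 7316 in Lipo-PBS, or 347 and 283 CPM, a log2 ratio of 0.29 (0.25 to 0.34). Macrophages held 27.3% of it in Lipo-Clo and 58.1% in Lipo-PBS, neutrophils 36.4% and 11.9%, and the monocyte-like cluster 29.0% and 4.05%. The level within macrophages was 9058 and 8921 CPM, a ratio of 0.02 (−0.05 to 0.09), and that within neutrophils 1814 and 1807, a ratio of 0.01 (−0.10 to 0.11). Both intervals held 0, but neither ratio stayed near it at every setting. The macrophage ratio was −0.80 with every deposited cell kept, −0.89 with coarser clusters, −1.87 with each library clustered alone and 0.46 in the cells called by C1q. Without the subclusters led by genes of another lineage it was −0.089 (−0.17 to −0.0089), and the neutrophil ratio −0.18 (−0.31 to −0.061). The neutrophil ratio lay between −0.20, as a mean over equally weighted cells, and 0.68, under the stricter cell filter. With the mixture of classes made the same, the whole-library ratio was 0.06.

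The monocyte-like cluster had 2703 UMIs in Lipo-Clo against 296 in Lipo-PBS, for a log2 ratio of 1.17 (1.00 to 1.35). It was 0.90 without the subclusters led by genes of another lineage and 0.96 under the stricter cell filter, so the 2-fold mark was not reached there. Cxcl2 was there the only 1 of 9 members 2-fold higher, beside 6.26% of genes. Lower by 2-fold were Ccl7, Ccl4, Ccl6, Cxcl1 and Cxcl12, 5 of 9, beside 19.6% of genes in a cluster whose median log2 ratio over all genes was −0.26. Each of the 5 fell short of 2-fold at some setting, with Ccl4 at −0.33 and Cxcl1 at −0.57 at resolution 2, Ccl7 at −0.30 under the stricter cell filter, Ccl6 at −0.84 with doublets kept and Cxcl12 at −0.57 with TMM factors. The subcluster led by F13a1 and Ccr2, genes of classical monocytes, held 1550 Cxcl2 UMIs in 136 Lipo-Clo cells and 87 in 37 Lipo-PBS cells, or 1823 (1733 to 1916) and 947 (758 to 1168) CPM. A subcluster led by H2-Eb1, H2-Ab1 and H2-Aa, the antigen-presenting genes of dendritic cells, had 972 and 161 CPM. Osteoclast-gene cells differed the opposite way, at 666 in Lipo-Clo against 2319 in Lipo-PBS. The summed level of neutrophil markers in the monocyte-like cluster was 43361 CPM in Lipo-Clo and 15071 in Lipo-PBS. Dendritic cell markers went the other way there, at 6773 and 17643 CPM, and monocyte markers summed to 2794 and 1976. The 2 libraries thus held unlike mixtures of cells in this cluster, and the part of that in its ratios was not tested.

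Neutrophils mature from cells rich in granule genes to cells that express Retnlg, Csf3r and Cxcr2. Cells led by Elane, Ctsg and Mpo, the earliest granule genes, were 91 in Lipo-Clo and 14 in Lipo-PBS, and held 210 Cxcl2 UMIs and 1. Cells led by Camp and Ngp, of the next stage, were 230 and 70, with Cxcl2 at 1080 and 1041 CPM. The most mature cells, led by Asprv1, Retnlg and Fpr1, were 112 and 56, with 8778 (8378 to 9191) and 8467 (7737 to 9247) CPM, close to the level of macrophages. Ccl6 too was higher in the third of these stages, at 305 and 479 CPM against 31.7 and 52.4 in the second. Over whole libraries all 8 early granule genes listed and 5 of 8 late neutrophil genes were 2-fold higher in Lipo-Clo, beside 2.66% of genes. Of the early genes, Elane, Mpo and Ctsg lay mostly in the monocyte-like cluster. Elane had 8052 and 1275 UMIs there, against 119 and 36 in the neutrophil class. In the monocyte-like cluster the ratios of the 8 early genes ran from 0.56 (Camp) to 3.41 (Lcn2) on the log2 scale. There 6.26% of all genes were 2-fold higher. Within the neutrophil class 0 of the 6 early genes with enough UMIs passed 2-fold, beside 3.28% of genes higher and 14.7% lower. Of the late genes 2 of 8 were lower, Il1b at −1.13 and Clec4d at −1.24 on the log2 scale. Of 6 members with at least 20 UMIs in neutrophils, Ccl2 was 2-fold higher in Lipo-Clo (27 UMIs against 3, beside 3.28% of genes) and Ccl4 lower (beside 14.7%). The interval of the Ccl2 ratio, 1.21 (−0.49 to 3.57), held 0, and the ratio lay between −0.03 and −2.19 under the stricter cell filter, with doublets or every cell kept, and with coarser or separate clustering.

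**Figure D4:**
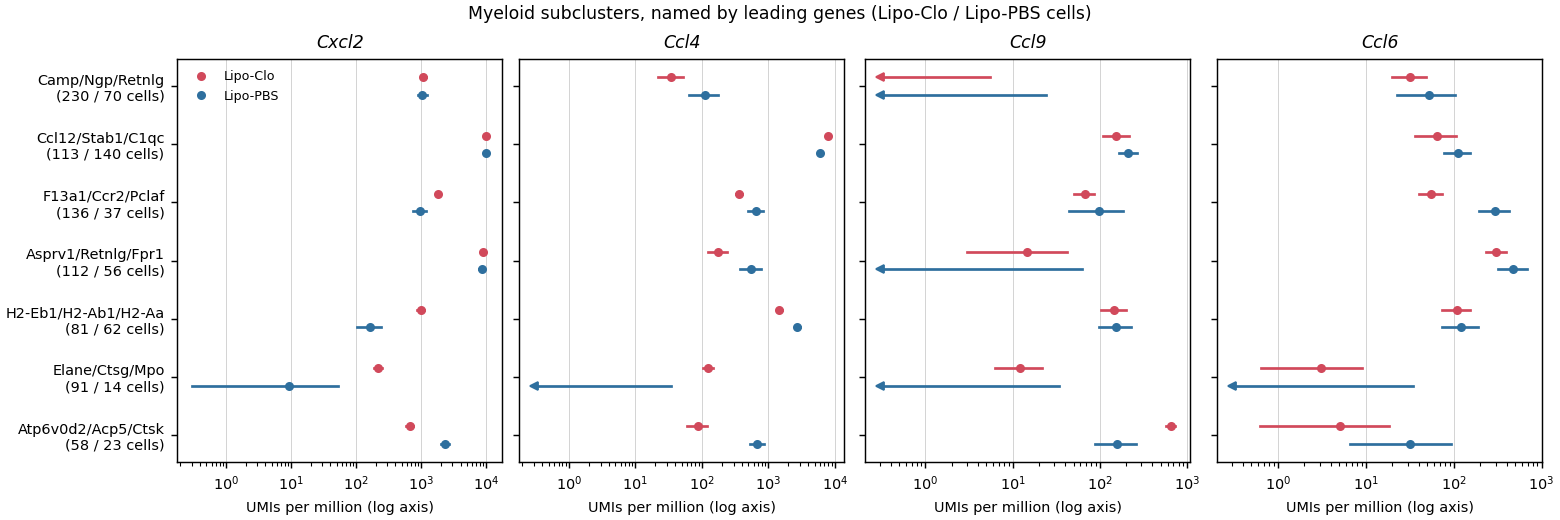
CPM (log axis) of 4 chemokines in 7 myeloid subclusters named by their leading genes; points are Lipo-Clo (red) and Lipo-PBS (blue) with 95% Poisson intervals, and a triangle at the left edge marks a count of 0. Cxcl2 is highest in the Ccl12/Stab1/C1qc macrophages and the Asprv1/Retnlg/Fpr1 neutrophils of both libraries, and Ccl9 in the osteoclast-gene cells of Lipo-Clo.

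Cxcl1, the neighbour of Cxcl2 with the same receptor, was counted mainly in stromal cells. Of the named classes, macrophages had its highest level, at 139 and 206 CPM. The unnamed cluster led by Acta2, Itm2a and Col15a1 had 297 and 115 CPM, from 17 and 18 UMIs. Cxcl1 had 474 UMIs in Lipo-Clo against 1128 in Lipo-PBS, for a log2 ratio of −1.31 (−1.46 to −1.15). Dental mesenchyme held 51.5% and 47.4% of it and perivascular cells 17.1% and 14.98%, whereas neutrophils had 6 UMIs in Lipo-Clo and 0 in Lipo-PBS. Over both libraries dental mesenchyme held 48.6% of Cxcl1, close to its 46.8% of all UMIs. The mesenchymal level was 19.7 CPM in Lipo-Clo against 43.6 in Lipo-PBS, for a ratio of −1.14 (−1.37 to −0.92). Erythroid cells, the guide to free RNA, had 1.95 and 19.3 CPM, from 3 and 15 UMIs. The part of free RNA in the mesenchymal ratio was not tested. Perivascular cells had 106 and 127 CPM, a ratio of −0.26 (−0.66 to 0.13) not clear of 0. A Cxcl1 UMI was seen in 4.72% and 7.86% of mesenchymal cells, against 0.852% and 4.52% of erythroid cells. At 1000 UMIs a cell the mesenchymal shares were 2.20% and 3.53%, and the erythroid ones 0.290% and 0.571%.

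Cxcl1, Ccl8 and Ccl7 were the 3 of 10 members 2-fold lower in dental mesenchyme, beside 3.64% of genes, and 0 of 10 were higher, beside 1.59%. With cells thinned to 1000 UMIs the ratio was −0.76 for Cxcl1 and −1.28 for Ccl8. Mesenchyme was split into 13 subclusters. The one led by Mfap5, Clec3b and Tnxb, genes of fibroblasts, held 434 Lipo-Clo and 774 Lipo-PBS cells. It carried 49.1% and 56.8% of the mesenchymal Ccl8 and 28.3% and 41.1% of the mesenchymal Cxcl1. Within it Cxcl1 was 63.5 (49.4 to 80.4) and 105 (91.9 to 120) CPM, and Ccl8 23.9 (15.6 to 35.1) and 62.2 (52.0 to 73.9). Cxcl1 was lower in Lipo-Clo in 6 of 7 subclusters with at least 20 of its UMIs, and Ccl8 in 4 of 4. The summed level of macrophage markers in dental mesenchyme was 91.3 CPM in Lipo-Clo and 137 in Lipo-PBS, and its part in these values was not tested.

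Ccl2 in mesenchyme, which lay below the erythroid level in Lipo-PBS, was lower in Lipo-Clo in 7 of 9 such subclusters and higher in 2. Cells led by Ibsp, an osteoblast and cementoblast gene, with haemoglobin genes next in rank, had 39 Ccl2 UMIs in Lipo-Clo and 6 in Lipo-PBS. The other higher subcluster, led by Mmp13, Sfrp2 and H19, had 11 and 9, a log2 ratio of 0.39 (−1.02 to 1.83). Among the 7 lower, cells led by Dspp, the gene of odontoblast dentin matrix, had 4 and 37. Cxcl2 in mesenchyme was 22.0 and 37.9 CPM, a log2 ratio of −0.79 (−1.01 to −0.57). Erythroid cells had 52.1 and 12.8 CPM of Cxcl2, in Lipo-Clo mostly from a single cell.

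Cxcl12, the ligand of Cxcr4, had 2798 UMIs in Lipo-Clo and 2638 in Lipo-PBS, and its log2 ratio of 0.03 (−0.05 to 0.11) was not clear of 0. It was the member spread over most cells, with a UMI in 16.4% and 18.7% of all cells, against 5.68% and 4.52% of erythroid cells. Myeloid cells had little of it. Endothelium had 441 (391 to 495) CPM in Lipo-Clo and 192 (169 to 218) in Lipo-PBS, a ratio of 1.20 (0.94 to 1.45), the 1 of 5 endothelial members that was 2-fold higher, beside 2.98% of genes. The ratio was 0.54 under the stricter cell filter and 0.73 as a mean over equally weighted cells. The UMIs lay in blood vessel cells led by Emcn, Cdh5 and Flt1, with 283 and 204, whereas lymphatic cells led by Ccl21a, Mmrn1 and Lyve1 had 1 and 38. These lymphatic cells were 31 in Lipo-Clo and 138 in Lipo-PBS, with a median of 3799 UMIs. The blood vessel cells were 382 and 405, with a median of 1129 UMIs. The part of this unlike mixture in the endothelial ratio was not tested. The share of endothelial cells with a Cxcl12 UMI was 19.1% (15.4% to 23.3%) and 17.5% (14.4% to 21.0%).

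In dental mesenchyme Cxcl12 was 138 CPM in Lipo-Clo against 112 in Lipo-PBS, for a log2 ratio of 0.30 (0.19 to 0.40), and it was higher in Lipo-Clo in 8 of 11 subclusters. The richest subcluster, led by Ctnnd2, Cntn4 and Dok6, held 794 UMIs in 407 Lipo-Clo cells and 279 in 224 Lipo-PBS cells, or 1225 (1141 to 1313) and 641 (568 to 721) CPM. It carried 46.6% of mesenchymal Cxcl12 in Lipo-Clo and 20.3% in Lipo-PBS. Its median depth of 1345 UMIs was the lowest of these subclusters. Among the marker lists it met only that of erythroid cells, by the haemoglobin genes Hba-a1, Hba-a2, Hbb-bt and Hbb-bs. With each library clustered alone the mesenchymal ratio was −0.40. An unnamed cluster led by Cntn6, Kcnip4 and Pcp4 added 417 and 187 UMIs, at 184 and 132 CPM.

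**Figure D5:**
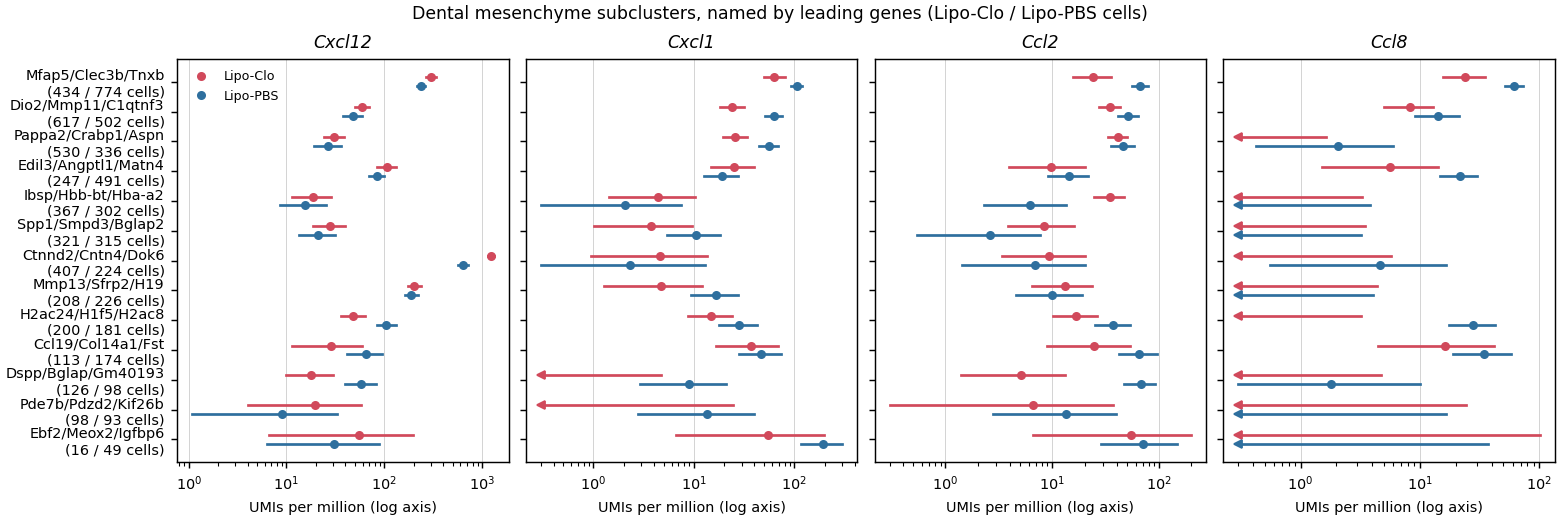
CPM (log axis) of 4 chemokines in 13 dental mesenchyme subclusters named by their leading genes; points are Lipo-Clo (red) and Lipo-PBS (blue) with 95% Poisson intervals, and a triangle at the left edge marks a count of 0. Cxcl12 peaks in Ctnnd2/Cntn4/Dok6 cells at 1225 and 641, while Ccl8 and Cxcl1 are high in the Mfap5/Clec3b/Tnxb cells.

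Low counts in the remaining classes also differed. Epithelium had 43 Ccl2 UMIs in Lipo-Clo against 209 in Lipo-PBS, 43 of the latter in 1 cell, and 2 of its 7 members with enough UMIs (Ccl2 and Ccl3) were 2-fold lower, beside 5.91% of genes, and 0 higher, beside 2.92%. Endothelial Cxcl2 was 22 UMIs in Lipo-Clo and 146 in Lipo-PBS, and with Ccl4 made 2 of 5 members lower, beside 5.98%. The summed level of late neutrophil genes in endothelium was 57.5 CPM in Lipo-Clo and 363 in Lipo-PBS, and its part in these 2 members was not tested. Glia had 4 of 5 members lower (Ccl2, Ccl4, Cxcl1 and Cxcl2), beside 6.46%, and 0 higher, beside 2.67%. Perivascular cells had 0 of 6 past 2-fold in either direction, beside 2.62% of genes higher and 3.43% lower. In T or NK cells 3 of 5 members (Ccl2, Ccl3 and Cxcl2) were higher, beside 4.12%, and 0 lower, beside 8.13%, and 17 of their 31 Lipo-Clo UMIs of Ccl2 lay in 1 cell. Neutrophil markers in these cells summed to 12134 CPM in Lipo-Clo and 4108 in Lipo-PBS, those of mast cells or basophils to 2037 and 209, and those of macrophages to 193 and 186, and their part in the 3 members was not tested. In B cells 1 of 3 (Ccl4) was lower, beside 7.46%, and 0 higher, beside 3.80%. Erythroid cells, the comparator, had Cxcl2 higher, beside 4.27%, with 55 of 80 UMIs in 1 cell, and Ccl2 lower, beside 6.05%. Erythroid markers summed to 28600 CPM in Lipo-Clo and 59576 in Lipo-PBS in dental mesenchyme, and to 35231 and 69803 in glia. In macrophages they summed to 16604 and 50189, and in the monocyte-like cluster to 11385 and 50339. Neutrophil markers went the other way in dental mesenchyme, at 693 and 143 CPM. The part of free RNA in the low counts was not tested.

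The receptors of these chemokines were counted on the leukocytes that would answer them. Ccr2 lay mostly in the monocyte-like cluster (75.5% of its UMIs), Cxcr2 in neutrophils (80.4%) and Ccr1 in neutrophils (39.9%) and the monocyte-like cluster (28.0%). Cxcr4 was highest in count in B cells (35.0%). Of 8 signalling receptors, 5 had at least 20 UMIs over all cells. Of these 1, Cxcr2, was 2-fold higher in Lipo-Clo (147 UMIs against 57, a log2 ratio of 1.31), beside 2.66% of genes. Ccr2 had 402 and 218 UMIs, a ratio of 0.83. Within the class that held most of each, both ratios were negative. Cxcr2 in neutrophils was at −0.42 (−0.94 to 0.12), where the median over all genes was −0.33. Ccr2 in the monocyte-like cluster was at −0.66 (−0.95 to −0.36), where that median was −0.26. In macrophages Ccr1 had 9 UMIs in Lipo-Clo against 58 in Lipo-PBS, for a ratio of −1.92.

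Atypical receptors bind chemokines without signalling and remove them. Ackr3, which takes up Cxcl12, lay in epithelium (40.5%) and dental mesenchyme (36.9%) and had 1281 UMIs in Lipo-Clo and 1212 in Lipo-PBS. Ackr4 and Ackr2 were the 2 of 4 that were 2-fold lower, at 202 against 391 UMIs and 54 against 117, beside 5.27% of genes. Of 28 other chemokines, 20 had enough UMIs, with 2 higher (beside 2.66% of genes), 3 lower (beside 5.27%) and a median log2 ratio of −0.24. Lower among the 6 with most UMIs were 2, Ccl21a of lymphatic endothelium (1955 UMIs against 6711) and Pf4 of macrophages (1345 against 3114). The remaining 3, chosen after their values were seen, were Ccl24 (9 UMIs against 61), Ccl22 (24 against 1) and Cxcl9 (32 against 13).

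The list of 17 NF-κB targets and inflammatory cytokines had 0 genes 2-fold higher and 3 lower over all cells, beside 2.66% and 5.27% of genes. Its median log2 ratio was −0.19. The 3 were the cytokines Il1a at −1.13, Il6 at −1.21 and Csf2 at −1.17 on the log2 scale. In macrophages all 13 with enough UMIs stayed within 2-fold, including Nfkbia (314 and 613 UMIs, ratio −0.20) and Tnf (86 and 153, ratio −0.07). Of all genes used there, 3.69% were 2-fold higher and 8.83% lower. Enzymatic dissociation induces immediate early genes and some chemokines. The 17 stress genes summed to 6858 CPM in Lipo-Clo and 8714 in Lipo-PBS over all cells, and to 14262 and 16448 in macrophages, where none passed 2-fold. In the monocyte-like cluster 8 of 17 were 2-fold lower, beside 19.6% of genes there. The part of this difference in the chemokine values was not tested.

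Across 22 points (11 classes in both libraries), the genes whose log2 levels were most like each member were named as a description, since points share libraries and depth. Ccl2 was closest to Ccl7 (Pearson r = 0.91), Cxcl10 (0.89) and P2rx4 (0.85), and Ccl7 to Ccl12 of the same chromosome 11 group (0.92), Sqstm1 (0.91) and Ccl2. Ccl4 was closest to Tnf (0.95), Ccl3 (0.95) and Bcl2a1b (0.94), and Ccl3 to Fcgr3 (0.96), Lcp2 (0.95) and Ccl4. Cxcl2 followed Cd14 (0.96), Aoah (0.95) and Fcgr3 (0.94), whereas Cxcl1 followed Tslp (0.91), Zfand5 (0.87) and Myom1 (0.87). Among the nearest genes to Ccl8 were Cxcl16 (0.83) and C3ar1 (0.83). The nearest were Igsf6 (0.94), Cd300c2 (0.92) and Lyz2 (0.92) for Ccl6. They were Ms4a6c (0.94), Cd86 (0.91) and Cd68 (0.91) for Ccl9, and Tcim (0.95), Hspg2 (0.93) and Nbea (0.92) for Cxcl12.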

How the data were processed

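Single-cell RNA was sequenced from 1 Lipo-Clo and 1 Lipo-PBS library. The authors deposited whole-number UMI counts per gene and cell, not normalized, which the file headers trace to Cell Ranger 8.0.0. The submitters' processing notes name Cell Ranger 3.1.0, Seurat 3.1.1, GRCm39 and mm39. Depth was 31053404 UMIs in 9362 cells (Lipo-Clo) and 30537834 in 9653 (Lipo-PBS), with medians of 2666.5 and 2722 UMIs.

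Cells needed 200 genes and at most 20% mitochondrial UMIs. Next came doublets, scored with Scrublet (scanpy 1.11.5). Its automatic threshold called 0 and 1 cells, and 0.8% for every 1000 cells were instead taken out from the top of the scores (632 and 633 cells). Counts were scaled to 10000 per cell, logged, and reduced to 2000 variable genes without chemokine and chemokine receptor genes. Genes were scaled to unit variance, and Leiden clusters were drawn from 30 components with 20 neighbours each (leidenalg 0.10.2, resolution 1, seed 1). Clusters were named from marker lists (at least 3 markers, 2-fold above the median cluster, in at least 10% of cells). The members and lists were chosen with earlier results of these data known, and the naming rules were settled after the data were seen. Dental mesenchyme was clustered again at resolution 0.6, macrophages at 0.5, and macrophages, monocyte-like cells and neutrophils together.

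UMIs were summed per class and library and divided by the class total (CPM, per 1000000 UMIs). Counts carry exact Poisson intervals, shares exact Clopper-Pearson intervals, and ratios exact conditional intervals. Genes with at least 20 UMIs over both libraries, in classes with at least 50 cells in each, were called by size alone at 2-fold. No p-value was computed. The ratio and its interval were run on simulated counts drawn from the Poisson model that the interval assumes. The bunching of UMIs in few cells was not simulated. All 10 members are named, with at most 6 genes per list by UMI count and the 3 most similar genes per member (at least 200 UMIs, Pearson r of log2 CPM plus 1). One of the genes similar to Ccl8 is not reported here. Alternatives were other cell filters, clusterings, totals and fold limits, edgeR 4.0.16 TMM factors and DESeq2 1.42.0 size factors (R 4.3.3). Upstream sequences, with the longest run shared by a pair of members, came from a RefSeq table of GRCm38.p6.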

Additional observations from a re-analysis of the deposited data

How the results depend on the processing

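With 1 library per condition, depth limits counting error alone, the spread between mice is unknown, and no replicate was left out. No paired analysis was possible because there was a single library for either treatment. Over all cells 94 of 100 alternative log2 ratios kept the direction given above, and within 6 classes 470 of 545 did. The monocyte-like cluster did not form at Leiden resolution 0.5, with every deposited cell kept, or in Lipo-PBS clustered alone, so it has no value there. The cause of the shifts below was not tested.

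Whole-library log2 ratios that left their counting interval were, with TMM factors, −0.95 for Ccl2, −0.10 for Ccl4, 0.42 for Cxcl2 and 0.16 for Cxcl12. With DESeq2 size factors they were −0.98, −0.14, 0.39 and 0.13 for the same genes. With every deposited cell kept they were −0.98 for Ccl2 and −0.95 for Ccl8, and without the mixed-lineage cluster (chosen after seeing the data) −1.003 for Ccl2. As means over cells scaled to 10000 UMIs they were −0.87 for Ccl2, −0.70 for Ccl8, 0.33 for Ccl9, −0.99 for Cxcl1 and 0.34 for Cxcl12. With cells thinned to 1000 UMIs they were −0.81 for Ccl2, −1.09 for Ccl7, −0.37 for Ccl8, 0.73 for Ccl9, −0.99 for Cxcl1, 0.42 for Cxcl2 and 0.32 for Cxcl12. With the same mixture of classes they were −0.58 for Ccl2, −0.59 for Ccl7, −0.75 for Ccl8, −0.19 for Ccl3, −1.06 for Ccl6, 0.10 for Ccl9, −0.96 for Cxcl1, 0.057 for Cxcl2 and 0.30 for Cxcl12.

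Log2 ratios in the class that held most of a member moved as follows (macrophages for Ccl2, Ccl7, Ccl3, Ccl4 and Cxcl2, the monocyte-like cluster for Ccl6 and Ccl9, dental mesenchyme for Ccl8, Cxcl1 and Cxcl12). With doublets kept they were −0.61 for Ccl2, −0.66 for Ccl7, 0.21 for Ccl4 and −0.84 for Ccl6. Under a stricter cell filter (500 genes or more, mitochondrial UMIs of 10% or less) they were −0.51 for Ccl2, 0.43 for Ccl4 and −0.13 for Cxcl2. With every deposited cell kept they were −1.75 for Ccl2, −2.02 for Ccl7, −0.88 for Ccl3, −0.96 for Ccl4 and −0.80 for Cxcl2. At resolution 0.5 they were −1.83, −2.12, −1.01, −0.97 and −0.89 for the same genes, and at resolution 2 −0.40 for Ccl9. With each library clustered alone they were −2.80 for Ccl2, −3.16 for Ccl7, −1.85 for Ccl3, −1.71 for Ccl4, −1.87 for Cxcl2 and −0.40 for Cxcl12. With chemokine genes allowed in the clustering they were 0.57 for Ccl4 and −1.13 for Ccl6. TMM factors gave −1.12 for Ccl6 and 0.82 for Ccl9, and DESeq2 size factors 0.81 for Ccl9. Means over cells gave −0.51 for Ccl2, −0.54 for Ccl7, 0.47 for Ccl4, −0.063 for Cxcl2 and 0.62 for Cxcl12. Thinning gave −1.28 for Ccl8, −0.20 for Ccl3, 0.52 for Ccl4, −1.01 for Ccl6, −0.76 for Cxcl1 and 0.52 for Cxcl12. Cells with at least 3 C1q UMIs were 163 in Lipo-Clo and 287 in Lipo-PBS. Over both libraries 287 of them lay in the macrophage cluster and the rest in other clusters. All of these cells gave −0.078 for Ccl2, −0.056 for Ccl7, 0.43 for Ccl3, 0.96 for Ccl4 and 0.46 for Cxcl2. Leaving out myeloid subclusters led by another lineage (chosen after seeing the data) gave 0.43 for Ccl4, −2.10 for Ccl6 and −0.089 for Cxcl2.

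The sign turned in 9 ratios past 2-fold. Ccl8 in macrophages was −0.12 with every deposited cell kept, −0.55 at resolution 0.5 and −0.84 with libraries clustered alone. Ccl2 in neutrophils was −0.22 with doublets kept, −0.034 under the stricter cell filter, −0.23 with every cell kept, −0.28 at resolution 0.5 and −2.19 with libraries clustered alone. Ccl4 in neutrophils was 0.55 under the stricter filter.

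Shares of a member's UMIs in the same classes moved too. With doublets kept they were 50.3% for Ccl2, 48.1% for Ccl8, 49.8% for Ccl3, 61.4% for Ccl4, 60.2% for Ccl9, 45.0% for Cxcl1 and 44.6% for Cxcl2. Under the stricter filter they were 47.3% for Ccl8, 58.1% for Ccl4, 43.3% for Cxcl2 and 65.6% for Cxcl12. With every cell kept they were 57.6% for Ccl2, 80.6% for Ccl7, 47.7% for Ccl8, 72.3% for Ccl3, 78.4% for Ccl4, 43.7% for Cxcl1 and 59.9% for Cxcl2. At resolution 0.5 they were 56.9% for Ccl2, 80.8% for Ccl7, 73.2% for Ccl3, 78.7% for Ccl4, 59.9% for Cxcl2 and 58.4% for Cxcl12, and at resolution 2 17.2% for Ccl6, 13.1% for Ccl9, 52.2% for Cxcl1 and 61.3% for Cxcl12. With libraries clustered alone they were 54.4% for Ccl2, 63.7% for Ccl3, 68.2% for Ccl4, 56.1% for Cxcl2 and 45.5% for Cxcl12. Without the mixed-lineage cluster they were 54.1% for Ccl2, 83.9% for Ccl7, 61.7% for Ccl8, 49.1% for Ccl3, 59.8% for Ccl4, 53.8% for Cxcl1, 42.8% for Cxcl2 and 61.5% for Cxcl12. Over all cells 965 genes were 2-fold higher and 1929 lower at a minimum of 5 UMIs, and 1168 and 2573 passed a 1.5-fold limit, against 472 and 934.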
